A study of Mus musculus with 6 samples.

Results

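The genes described here build the muscle side of the nerve-muscle synapse. They are 5 subunits of the muscle acetylcholine receptor (Chrna1, Chrnb1, Chrnd, Chrng and Chrne) and 5 genes that gather the receptor under the nerve ending or end its signal (Lrp4, Musk, Dok7, Rapsn and Ache). These 10 members were taken by name from the array's annotation, which gave 18194 genes with a probe set of 1 symbol, and they were represented by 13 probe sets. The cells were myoblasts, the dividing precursors of skeletal muscle, taken from the hindlimb of C57BL/6JRj mice, all male and aged 9 to 15 weeks. They were plated on dishes coated with fibronectin (3 samples) or with collagen I (3 samples) and grown for 72 hours, in both groups in Ham's F-10 medium with 20% fetal bovine serum, 2.5 ng/ml basic fibroblast growth factor and 1% P/S. The labels name no nerve cells in the cultures. The comparison asked how the 2 substrates, both proteins of the extracellular matrix, changed the expression of these genes.

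At the synapse the nerve releases agrin, which binds Lrp4 on the muscle surface, and Lrp4 then switches on the receptor kinase Musk. Dok7 binds Musk inside the cell and keeps it active, and the signal leads the scaffold protein rapsyn, encoded by Rapsn, to cluster acetylcholine receptors. The receptor is a channel of alpha, beta and delta subunits with either gamma, the form of fetal muscle, or epsilon, the form that replaces it after innervation. Acetylcholinesterase, encoded by Ache, breaks the transmitter down. Muscle precursors raise many of these genes as they differentiate, before any nerve contact.

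All levels are log2 signals of the deposited table, in which 1 unit is a doubling, and each gene is represented by its brightest probe set. Sample medians over the 45101 probe sets lay between 2.30 and 2.34 on fibronectin and between 2.35 and 2.39 on collagen I, and correlations between samples over all probe sets were at least 0.994. Of 10 fixed myoblast markers 9 were bright enough to test, among them Myod1, Myf5, Pax7 and Des. By limma 2 of them were higher on fibronectin and 3 lower. The lower ones include Chrna1, which is also a member. Of the markers of other cell types, 0 of 8 measured endothelial genes were bright enough to test. Among fibroblast markers 1 of 9 was, Thy1, which was lower on fibronectin (log2 change -0.32, adjusted p = 0.0399 by limma). Leukocyte markers had 3 of 8 tested, 2 of them lower, and Schwann cell markers 3 of 8, with 1 lower. Motor neuron markers had 1 of 10 tested, which was lower. Over all genes tested 20.2% were lower and 19.9% higher. Nothing in the labels ties the samples to separate cultures or animals, and p-values cover only their spread, which could be of technical origin. The number of arrays limits the precision.

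The stretches upstream of these genes are shown because muscle regulatory factors such as Myod1 and Myog bind the E-box, letters CANNTG, and because 8 of the members were lower on fibronectin. RefSeq promoters of assembly GRCm38.p6 were found for 7 members (8 promoters) and were read over the 250 bases before the start of transcription. The 5 shown are those of 3 genes that were lower on fibronectin (Chrng, Chrna1 and Musk), of the subunit that did not pass the test (Chrnb1) and of the subunit that stayed under the brightness filter (Chrne). They lie at chr1:87205561-87205810 (plus strand), chr2:73580339-73580588 (minus strand), chr4:58285712-58285961 (plus strand), chr11:69795938-69796187 (minus strand) and chr11:70619195-70619444 (minus strand). Each is written 5′ to 3′ on its gene's own strand, and capitals mark CANNTG.
Chrng: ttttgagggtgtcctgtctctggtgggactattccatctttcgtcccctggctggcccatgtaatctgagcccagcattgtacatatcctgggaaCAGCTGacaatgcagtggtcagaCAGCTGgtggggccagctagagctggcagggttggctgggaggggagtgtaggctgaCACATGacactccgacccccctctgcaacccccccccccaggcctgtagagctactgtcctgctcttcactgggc
Chrna1: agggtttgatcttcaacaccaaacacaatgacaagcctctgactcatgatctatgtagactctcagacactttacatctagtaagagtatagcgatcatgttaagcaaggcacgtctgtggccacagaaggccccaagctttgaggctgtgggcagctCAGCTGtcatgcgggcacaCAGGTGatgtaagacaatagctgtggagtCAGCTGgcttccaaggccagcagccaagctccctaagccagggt
Musk: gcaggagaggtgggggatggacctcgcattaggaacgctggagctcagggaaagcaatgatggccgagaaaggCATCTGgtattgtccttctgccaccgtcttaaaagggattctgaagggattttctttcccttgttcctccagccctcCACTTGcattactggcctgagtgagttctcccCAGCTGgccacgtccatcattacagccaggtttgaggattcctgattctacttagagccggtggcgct
Chrnb1: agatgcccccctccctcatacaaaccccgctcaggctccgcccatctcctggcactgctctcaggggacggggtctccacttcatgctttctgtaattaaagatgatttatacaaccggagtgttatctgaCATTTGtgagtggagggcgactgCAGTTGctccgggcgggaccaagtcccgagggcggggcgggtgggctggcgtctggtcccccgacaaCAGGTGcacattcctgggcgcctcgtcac
Chrne: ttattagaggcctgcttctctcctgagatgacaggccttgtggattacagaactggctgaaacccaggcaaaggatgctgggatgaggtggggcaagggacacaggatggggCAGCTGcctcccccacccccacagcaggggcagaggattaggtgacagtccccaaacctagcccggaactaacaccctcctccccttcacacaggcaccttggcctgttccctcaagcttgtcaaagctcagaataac

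At least 1 CANNTG stood in 7 of the 8 member promoters and in 66.2% of all 32851 promoters of the table. Chrng, Chrna1, Musk and Chrnb1 held 3 each, a number reached or passed by 12.2% of all promoters. The form CAGCTG, one of the CANNTG sequences and the same on both strands, occurred in 4 member promoters and in 13% of all. Chrng held it 155 and 132 bases before the start and Chrna1 92 and 44 bases before it, and 1.26% of all promoters held 2 or more. Musk had 1 copy, 68 bases before the start, and Chrne had 1. The form CAGGTG, also a CANNTG sequence and read on both strands, was found in Chrna1 and Chrnb1 and in 17.2% of all promoters. The N-box core CCGGAA, bound by the Ets factor Gabp and read on both strands, was found in Chrne alone among the member promoters, against 12% of all. These matches describe letters in the window. Of the 5 lower genes with a promoter in the table, Chrng, Chrna1 and Musk held 3 E-boxes each and Ache 1. Dok7 held 1 at its first start and 0 at the other, whose window lies downstream of the first start. Chrnb1, which did not pass, held 3, and Chrne, under the filter, held 1.

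**Figure D1:**
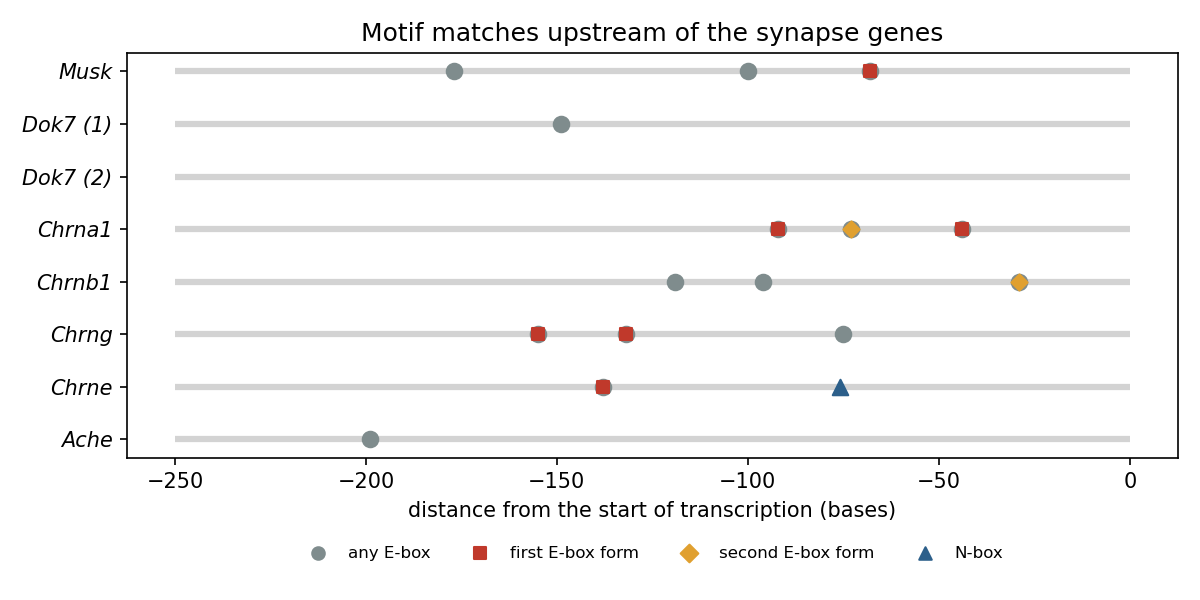
Positions of motif matches in the 250 bases before the start of transcription (x axis, bases) for the 8 promoters of 7 members, with Dok7 shown at both of its starts. Grey circles are E-boxes (CANNTG), red squares the first form (CAGCTG), orange diamonds the second form (CAGGTG) and the blue triangle the N-box core (CCGGAA). Chrng, Chrna1, Musk and Chrnb1 have 3 E-boxes each.

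On fibronectin 8 of the 9 members bright enough to test had lower signals than on collagen I, and none rose. The brightness filter was a mean log2 signal of 2.33, the median over all probe sets. The falls ran between 1.21 on the log2 scale for Musk and 0.28 for Rapsn, and the median log2 change of the tested members was -0.40, against 0.00 over all 10941 genes tested. By limma with Benjamini-Hochberg adjustment over all genes, 40.1% of the genes tested changed, 20.2% lower and 19.9% higher, so lower calls were common across the array. In a bulk sample, fewer cells of a type and less RNA per cell cannot be told apart. The same 8 members had 3 fibronectin samples below all 3 collagen samples, a pattern found in 25.9% of all genes tested. Chrnb1 had the opposite order, as did 27.4% of all genes.

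**Figure D2:**
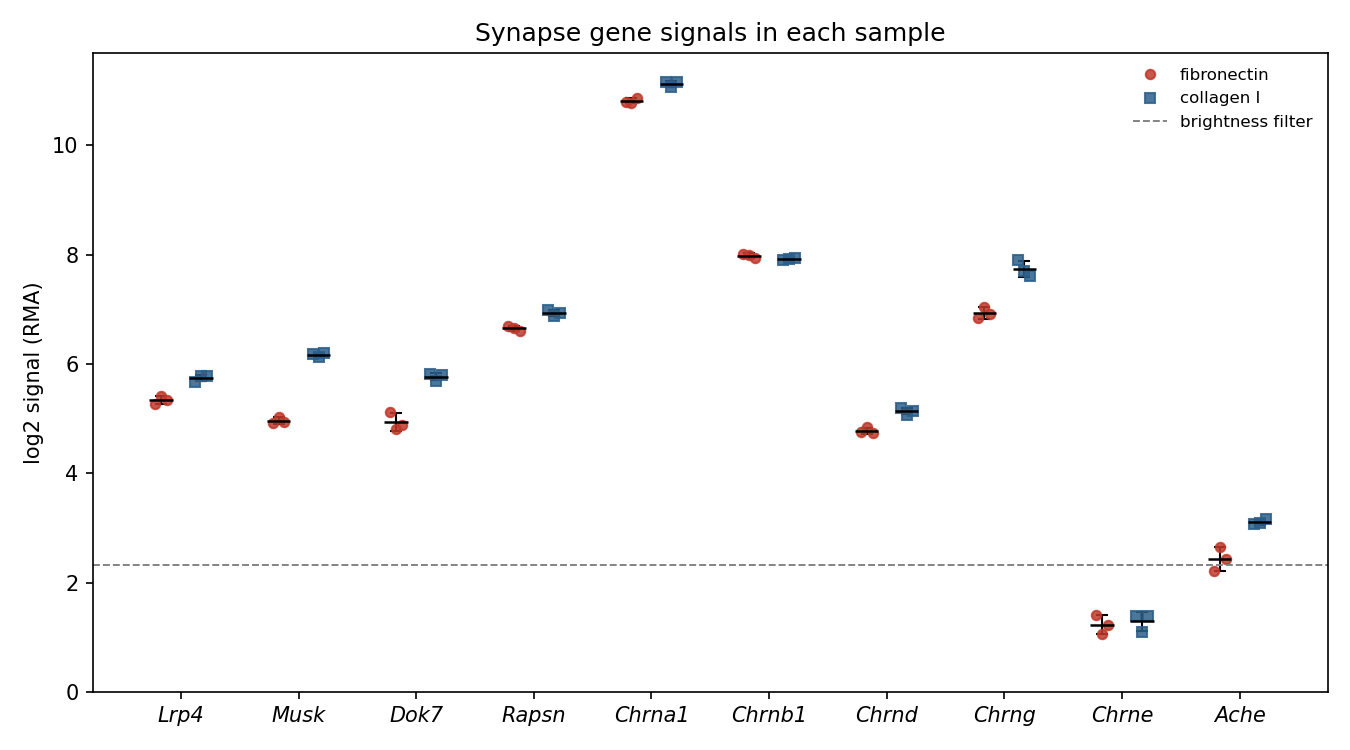
Log2 signal (y axis) of the 10 members in each of the 3 fibronectin samples (red circles) and the 3 collagen I samples (blue squares). Black bars are the mean and SD, and the dashed line is the brightness filter at 2.33. The coatings do not overlap for Lrp4, Musk, Dok7, Rapsn, Chrna1, Chrnd, Chrng and Ache, all lower on fibronectin, nor for Chrnb1, which is higher by a narrow margin, and Chrne lies under the filter.

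Musk (Entrez gene 18198), the kinase that starts receptor clustering, had signals of 4.92, 5.04 and 4.93 on fibronectin, against 6.18, 6.14 and 6.21 on collagen I. The lowest collagen sample lay 1.10 above the highest fibronectin sample. The log2 change was -1.21 (SE 0.05, adjusted p = 9e-06 by limma), which leaves 43.2% of the collagen signal. Only 58 of the 10941 tested genes had a lower log2 change. Its 95% confidence interval, -1.33 to -1.10, did not overlap that of any other member.

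Dok7, the cytoplasmic activator of Musk, had 5.13, 4.81 and 4.88 on fibronectin, against 5.81, 5.70 and 5.80 on collagen I. All fibronectin samples were lower, and their SD of 0.17 was wider than the 0.06 on collagen I. The log2 change was -0.83 (SE 0.08, adjusted p = 0.000264 by limma). A second, dimmer probe set of Dok7 averaged 1.85 ± 0.13 on fibronectin and 2.46 ± 0.09 on collagen I (SD, n = 3 each) and also separated the coatings, with a log2 change of -0.61 and an adjusted p of 0.00591 in limma fitted over all probe sets. The brighter probe set is of a type (suffix _s_at) that can bind transcripts of more than 1 gene, and the dimmer one is not.

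Lrp4, the agrin receptor, changed less than its partner kinase. Its signals were 5.27, 5.41 and 5.34 on fibronectin and 5.67, 5.78 and 5.77 on collagen I, without overlap. The log2 change was -0.40 (SE 0.05, adjusted p = 0.000998 by limma), or 75.7% of the collagen signal. Rapsn, the receptor scaffold, had 6.70, 6.66 and 6.60 on fibronectin and 6.98, 6.88 and 6.93 on collagen I. Its log2 change of -0.28 (SE 0.05, adjusted p = 0.00334) was the smallest of the called members. Along the clustering pathway the 95% intervals of Musk and Dok7 lay below those of Lrp4 and Rapsn, and all 4 genes fell.

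**Figure D3:**
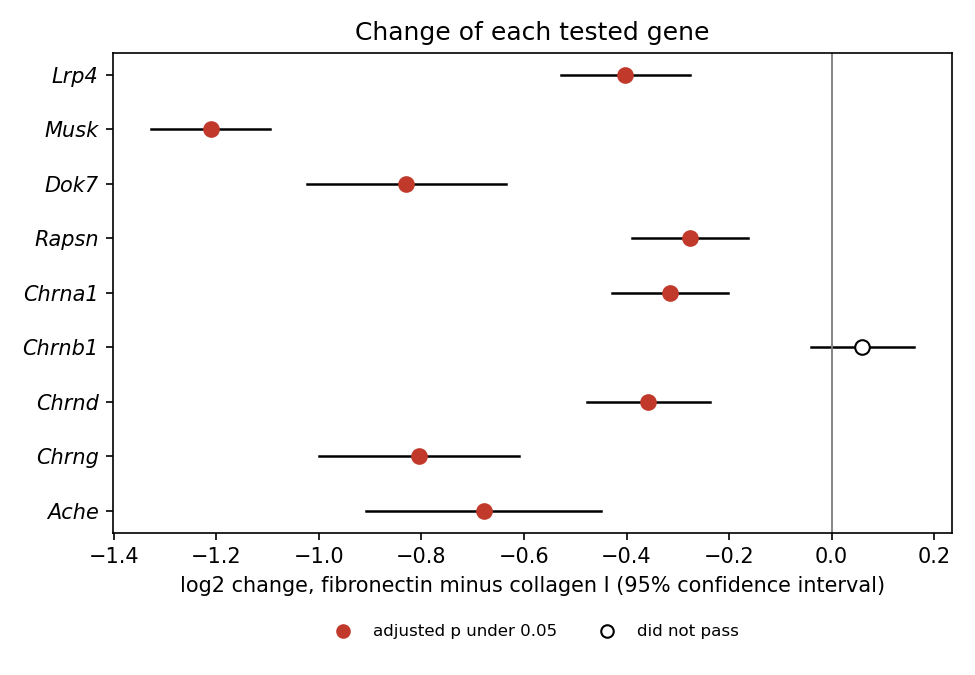
Log2 change, fibronectin minus collagen I (x axis), of the 9 tested members with 95% confidence intervals from limma. Filled circles passed an adjusted p of 0.05. Musk has the lowest value at -1.21, and the open circle of Chrnb1 at 0.06 has an interval that includes 0.

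The receptor subunits did not change alike. Chrna1, the alpha subunit that carries the transmitter binding site, had 10.80, 10.78 and 10.87 on fibronectin, against 11.17, 11.07 and 11.15 on collagen I. These groups were apart by 0.20, and the log2 change was -0.31 (SE 0.05, adjusted p = 0.00186 by limma). The delta subunit gene Chrnd had 4.76, 4.84 and 4.74 on fibronectin, against 5.19, 5.07 and 5.14 on collagen I, a log2 change of -0.36 (SE 0.05, adjusted p = 0.00131). Both kept close to 80% of the collagen signal, at 80.4% for Chrna1 and 78.0% for Chrnd.

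Chrng, the gamma subunit of the fetal receptor, fell further. Its brightest probe set had 6.84, 7.04 and 6.91 on fibronectin, against 7.90, 7.69 and 7.62 on collagen I, with no overlap. The log2 change was -0.80 (SE 0.08, adjusted p = 0.000308 by limma), or 57.2% of the collagen signal. Another probe set of Chrng (suffix _a_at, for transcript variants of a gene) averaged 5.09 ± 0.11 on fibronectin and 5.81 ± 0.13 on collagen I (SD, n = 3 each), a log2 change of -0.72 with an adjusted p of 0.00387 in limma over all probe sets. The remaining Chrng probe set lay near the bottom of the scale on both coatings, at 0.89 ± 0.06 and 0.94 ± 0.07, and its groups overlapped. With all probe sets fitted together 10 of the 13 member probe sets were called lower on fibronectin, against 5.55% of all 45101. That share includes the dim probe sets under the brightness filter. Among the genes above the filter 20.2% were called lower.

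**Figure D4:**
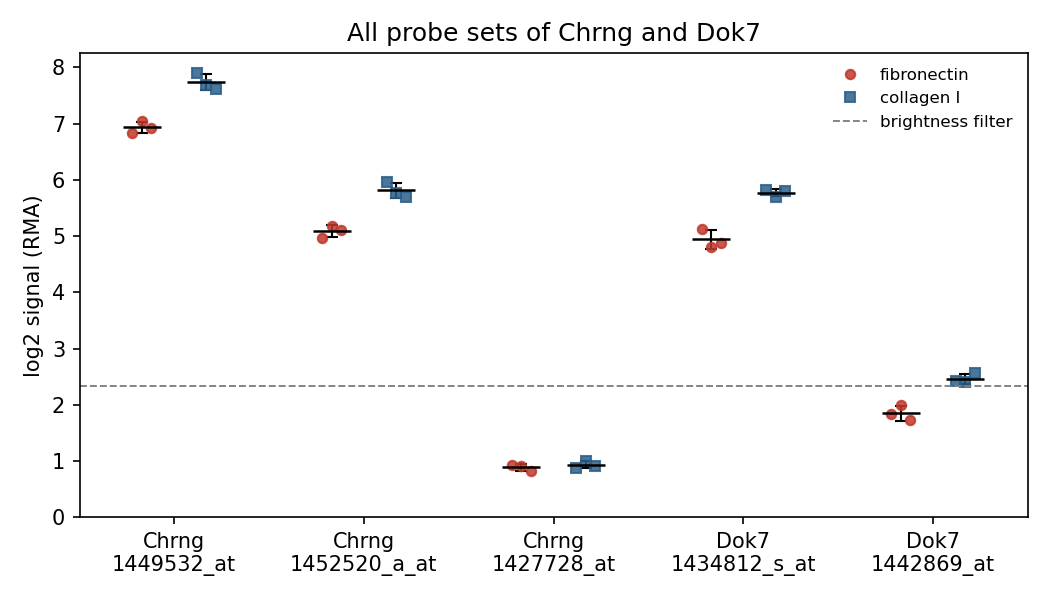
Log2 signal (y axis) of the 3 probe sets of Chrng and the 2 of Dok7 in each fibronectin sample (red circles) and collagen I sample (blue squares), with mean and SD as black bars and the brightness filter as a dashed line. Both probe sets of Dok7 and the brighter 2 of Chrng are lower on fibronectin without overlap, and the dimmest of Chrng averages 0.89 on fibronectin and 0.94 on collagen I.

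Chrnb1, the beta subunit, was the tested member that did not pass. It had 8.02, 7.99 and 7.94 on fibronectin, against 7.91, 7.92 and 7.94 on collagen I. The fibronectin samples were all above the collagen samples, but by only 0.0016 at the closest. Its log2 change was 0.06 (95% interval -0.04 to 0.16, adjusted p = 0.303 by limma), so the interval leaves out a fall of the size seen for Chrna1 or Chrnd. With each sample centred on its own median the change was 0.11 (adjusted p = 0.0769), and it did not pass in any of the alternatives run.

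Chrne, the epsilon subunit of the adult receptor, was listed at 1.41, 1.06 and 1.22 on fibronectin and at 1.39, 1.09 and 1.39 on collagen I. These values overlapped and lay below the filter in every sample, so the gene was not tested in the main comparison. Fitted with all probe sets its adjusted p was 0.812 by limma. Array signals of different probe sets are not on one scale, so the signals of Chrng and Chrne do not give a ratio of the 2 receptor forms.

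The difference between subunits was also taken within each sample, which removes any shift common to a whole array. Of the 6 pairs of tested subunits, 5 had log2 ratios that did not overlap between coatings, the exception being Chrna1 with Chrnd. The log2 change of Chrnb1 exceeded that of Chrng by 0.86 (SE 0.12), that of Chrnd by 0.42 (SE 0.05), and was above that of Chrna1, whose change minus that of Chrnb1 was -0.37 (SE 0.06). The change of Chrna1 exceeded that of Chrng by 0.49 (SE 0.11) and that of Chrnd by 0.04 (SE 0.05). The exact two-sided permutation test over samples gave p = 0.1 for each of the 5 pairs and 0.6 for Chrna1 with Chrnd, or 0.12 and 0.6 adjusted over the 6 pairs. With 3 samples against 3, 0.1 is the smallest p this test can give. When all probe sets of Chrng were averaged, including the one near the bottom of the scale, the 3 differences with Chrng were smaller, at 0.59 for Chrnb1, 0.21 for Chrna1 and 0.17 for Chrnd.

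Ache, the enzyme that clears acetylcholine, was the dimmest tested member. It had 2.22, 2.64 and 2.43 on fibronectin, against 3.07, 3.09 and 3.17 on collagen I. The groups did not overlap, the SD was 0.21 on fibronectin and 0.05 on collagen I, and 1 fibronectin sample lay under the filter. The log2 change was -0.68 (SE 0.10, adjusted p = 0.00136 by limma), and a signal this close to the array's floor may understate a change. Colq, the collagen tail that anchors the enzyme in the synaptic matrix, was listed at 1.43 ± 0.12 on fibronectin and 1.44 ± 0.18 on collagen I (SD, n = 3 each), below the filter. Bche, the related butyrylcholinesterase, averaged 0.96 on fibronectin and 0.89 on collagen I.

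The wider set of synapse genes was mixed. It held 125 genes in 5 lists, of which 90 were tested. On fibronectin 25 were lower, 13 were higher and 52 did not pass, with a median log2 change of -0.04. Lower calls therefore made up 25 of 90 genes, against 20.2% of all genes tested, and higher calls 13 of 90, against 19.9%. With samples centred on their medians 18 were higher and 18 lower, while over all genes 2973 were higher and 1646 lower. The count of higher genes was 8 without fibronectin replicate 1, without fibronectin replicate 3 or without collagen replicate 2.

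**Figure D5:**
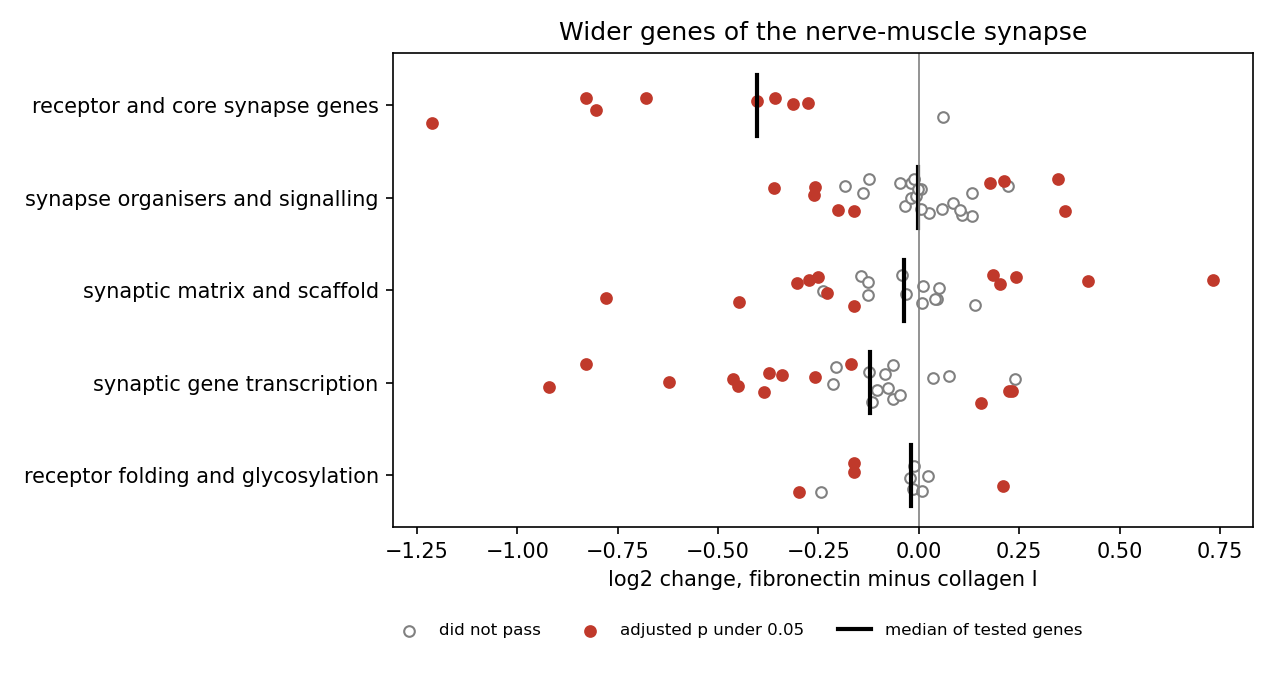
Log2 change, fibronectin minus collagen I (x axis), of the tested genes of each list, with a vertical bar at the median. Filled circles passed an adjusted p of 0.05 by limma. The receptor and core synapse genes have a median of -0.40, and the medians of the 4 wider lists drawn lie between -0.12 and 0.00; the other nicotinic subunits, with 1 tested gene, are not drawn.

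Of 29 tested organisers and signalling genes 20 did not pass, 4 were higher and 5 lower, with a median log2 change of 0.00. Over all genes tested 19.9% were higher and 20.2% lower, so these counts do not set the list apart. Agrn, which encodes agrin itself, had 6.39, 6.48 and 6.45 on fibronectin and 6.43, 6.45 and 6.43 on collagen I, overlapping values with a log2 change of 0.01 (SE 0.04, adjusted p = 0.92). Pdzrn3, a ubiquitin ligase that promotes the loss of Musk from the cell surface, rose by 0.36 (adjusted p = 0.000697). The kinase Cdk5 had a log2 change of -0.36 (adjusted p = 0.000758), and Ctnnb1, the adhesion and Wnt pathway protein beta-catenin, one of -0.26 (adjusted p = 0.00267). With all probe sets of a gene averaged, Pdzrn3 was at 0.21 (adjusted p = 0.0552) and Cdk5 at -0.09 (adjusted p = 0.16), and neither passed. The neuregulin receptor Erbb3 had a log2 change of -0.18 (adjusted p = 0.122), and its ligand Nrg1 was below the filter at 0.65 on fibronectin and 0.71 on collagen I. Erbb3 passed without collagen replicate 1, at -0.26. The list's count of higher genes was 1 without fibronectin replicate 1 or collagen replicate 2 and 2 without fibronectin replicate 2, which also left 3 lower genes. Without the filter the list had 2 higher and 3 lower genes. Its higher genes were 1 with probe sets averaged and 7 with samples centred.

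The synaptic matrix and scaffold list had 5 higher and 7 lower genes among 24 tested, and a median of -0.04. Among all genes tested the shares were 19.9% higher and 20.2% lower. Dmd, which encodes dystrophin, averaged 2.64 ± 0.09 on fibronectin and 3.41 ± 0.10 on collagen I (SD, n = 3 each), a log2 change of -0.78 (adjusted p = 0.000144). With its probe sets averaged Dmd lay under the filter and was not tested. Utrn, its relative that is concentrated at the synapse, had a log2 change of 0.04 (adjusted p = 0.418) and passed when its probe sets were averaged, at 0.14. Nid2, a basement membrane protein, rose by 0.73 (adjusted p = 0.00102), with means of 3.96 ± 0.02 on fibronectin and 3.23 ± 0.22 on collagen I. Ank3, a membrane adaptor that holds sodium channels, rose by 0.42 (adjusted p = 0.00107). The list had 4 lower genes without fibronectin replicate 1 or 3, with samples centred or without the filter.

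The synaptic gene transcription list holds transcription factors and their regulators, such as the deacetylase Hdac4 and the kinase subunit Prkaca. Of its 26 tested genes 10 were lower and 3 higher, against 20.2% and 19.9% of all genes tested, with a median of -0.12. Myog, which drives myoblast differentiation and binds E-boxes, had 4.17, 4.01 and 3.77 on fibronectin, against 4.90, 4.94 and 4.60 on collagen I, without overlap (log2 change -0.83, adjusted p = 0.00132 by limma). Myod1, the related factor of proliferating myoblasts, had 9.99, 10.06 and 10.06 on fibronectin and 10.13, 10.09 and 10.08 on collagen I, with a log2 change of -0.06 (adjusted p = 0.289). Mef2c and Mef2a, partners of the E-box factors, fell by 0.92 and 0.62 on the log2 scale, and Id1, an inhibitor of E-box factors, fell by 0.45, with adjusted p of 1.92e-05, 7.68e-05 and 0.000381. Gabpa, the N-box binding subunit of Gabp, rose by 0.22 (adjusted p = 0.0376), a call lost without collagen replicate 1 or 3, without fibronectin replicate 2 or 3, and without the brightness filter, at 0.15 to 0.24. The 3 higher genes of the list became 0 without fibronectin replicate 3 or without the filter, and 1 without collagen replicate 2.

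Other nicotinic receptor subunits, which serve mainly neurons, had low signals. Of 10 measured genes 9 lay below the filter, and Chrna7, the tested one, had a log2 change of -0.01 (adjusted p = 0.926). Of 10 tested genes of receptor folding and glycosylation 1 was higher and 3 lower, against 19.9% and 20.2% of all genes tested. Alg2 and Alg14, enzymes of the glycan that is attached to new membrane proteins and genes of inherited myasthenia in humans, had log2 changes of -0.30 (adjusted p = 0.00618) and 0.21 (adjusted p = 0.00688). The chaperone Hspa5 was at -0.16 (adjusted p = 0.0214). None of these 3 passed when probe sets were averaged, at -0.23, -0.029 and -0.10. The call of Hspa5 was also lost with samples centred, at -0.11, and without the filter. It was lost without collagen replicate 2 or fibronectin replicate 1 or 2 as well, at -0.16 to -0.14. The list had 1 lower gene without fibronectin replicate 1 or 2, with samples centred, without the filter or with probe sets averaged.

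Markers of differentiating muscle cells moved with the synapse genes. All 10 tested of 13 such markers were lower on fibronectin, with a median log2 change of -0.84. Of all genes tested 20.2% were lower. Their summed linear signal lay between 335 and 442 on fibronectin and between 753 and 813 on collagen I. The part of the differentiation markers in the fall of the synapse genes was not tested. Of the 10 motor neuron markers, Isl1 was tested and was lower on fibronectin (log2 change -1.22, adjusted p = 0.000103 by limma), and the other 9, among them the defining genes Chat, Slc18a3 and Mnx1, were below the filter. The summed linear signal of that list lay between 42.4 and 46.2 on fibronectin and between 66.8 and 77.0 on collagen I. For leukocyte markers the sum was between 42.2 and 47.8 on fibronectin and between 59.1 and 68.1 on collagen I. For Schwann cell markers it was between 98.9 and 114 on fibronectin and between 113 and 118 on collagen I. Isl1 was the brightest motor neuron marker and Cd68 the brightest leukocyte marker. Such sums weigh the brightest genes most and do not show that a whole list fell. The part of these lists in the result was not tested either.

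The mean standardised profile of the 9 tested members was set against every other tested gene over the 6 samples. Nkain1, Arhgap44 and Gnb4 had the highest Pearson correlations with it, at 0.999, 0.998 and 0.998, and log2 changes of -0.60, -0.46 and -0.12. A correlation of at least 0.95 was reached by 853 of 10932 genes, and the coating sets both sides of each correlation.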

How the data were processed

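Total RNA of 6 myoblast samples, 3 per coating, was measured on an Affymetrix mouse expression array. The values are log2 probe set signals as deposited by the authors. Per the submitters' processing notes they were made with Affymetrix Expression Console and RMA, a method that subtracts background, equalises the distribution of signals across arrays and summarises probe sets, with versions and settings not given in the sources used here. No scan date is known, so no batch could be tested. Quantile normalisation removes a change shared by most genes, and RMA compresses changes of dim probe sets. Per the labels' protocols 300 ng of RNA was labelled with an Illumina kit.

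Groups came from the sample titles. The 34945 probe sets with 1 symbol, named by the platform annotation and updated through RefSeq of assembly GRCm38.p6 (18032 of 18194 genes found), were reduced to the brightest per gene. Genes with a mean of at least 2.33 were fitted with limma 3.58.1 in R 4.3.3 (fibronectin minus collagen, two-sided, 4 residual and 3.81 prior degrees of freedom), with Benjamini-Hochberg adjustment over 10941 genes and a threshold of 0.05. Subunit pairs were compared with SciPy 1.17.1. The fit was tested on simulated data of this comparison with 10941 genes. It found 72% of 50 genes changed 1.25-fold and 96% of 50 changed 2-fold, with 10 false calls among 188. Far fewer genes were changed in the simulation than the 40.1% called in the data, so its rates need not hold there.

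The members and lists were chosen with earlier results of these data known. Named were all 10 members, up to 3 called genes per wider list by smallest p, 7 fixed genes (Myog, Myod1, Agrn, Colq, Erbb3, Gabpa and Utrn) and the 3 genes most like the members; other genes named with values (Nrg1, Bche, Chrna7, Isl1 and further markers) were chosen after their values were seen. Replicate numbers were checked for pairing: deviations of same-numbered samples correlated at 0.10, -0.01 and 0.08, which does not pair them. Alternatives were other filters, normalisations, probe set summaries, variance models, a replicate block, a stricter threshold, leaving out each sample and all probe sets fitted together.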

Additional observations from a re-analysis of the deposited data

How the results depend on the processing

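The 8 falls and the missing call of Chrnb1 held in the alternatives run, except that Chrnd and Ache lay under the 75th percentile filter of 5.18 and were not tested there, which left 6 lower members. No member was higher in any alternative. Leaving out 1 sample gave log2 changes between -1.25 and -1.19 for Musk, between -0.86 and -0.72 for Chrng and between -0.30 and -0.25 for Rapsn, with adjusted p of at most 0.0153 over the 8 members. Chrne, under the filter, ran between -0.16 and 0.02. With the replicate block 8 members were lower, and it moved the counts over all genes to 2021 higher and 2157 lower, against 2173 and 2211. It gave Erbb3 a call (adjusted p = 0.0309), and array weights did too (0.0427).

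Of the wider synapse genes 7 were higher with no filter and 5 at a threshold of 0.01, where 15 were lower; leaving out 1 sample gave 8 to 13 higher and 17 to 23 lower, the lowest count of 8 arising without fibronectin replicate 1, fibronectin replicate 3 or collagen replicate 2. At that stricter threshold 1171 genes in all were higher and 1398 lower. Centring gave 2973 higher and 1646 lower genes, 64.4% higher in place of 49.6%, and moved the median of all genes to 0.06. Averaging probe sets gave differences of 0.21 (Chrna1 minus Chrng), 0.59 (Chrnb1 minus Chrng) and 0.17 (Chrnd minus Chrng), since the average takes in a probe set near the floor, and it turned Alg14 to -0.029; the cause of the latter was not tested. Leaving out 1 sample gave 0.43 to 0.56, 0.77 to 0.93 and 0.39 to 0.51 for the same 3 differences. Signal near the floor limits what can be said of Chrne, Colq, Ache and the dimmer probe set of Dok7.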

Other observations

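Some genes listed as markers of other cell types had signals above the filter and were lower on fibronectin. Which cells of the cultures gave these signals cannot be told from bulk RNA. Isl1, a transcription factor known from motor neurons and other lineages, had 4.34, 4.65 and 4.41 on fibronectin, against 5.76, 5.78 and 5.52 on collagen I, a log2 change of -1.22 (SE 0.10, adjusted p = 0.000103 by limma). The other 9 motor neuron markers lay below the filter. Ngfr, the low-affinity neurotrophin receptor, averaged 3.25 ± 0.37 on fibronectin and 4.64 ± 0.08 on collagen I (SD, n = 3 each; log2 change -1.38, adjusted p = 0.000485), while the Schwann cell factor Sox10 had a log2 change of 0.05 (adjusted p = 0.559). Pmp22, the remaining Schwann cell marker tested, had a log2 change of 0.13 (adjusted p = 0.157 by limma).

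Cd68, a lysosomal protein of macrophages, averaged 3.36 ± 0.26 on fibronectin and 4.63 ± 0.18 on collagen I (SD, n = 3 each; log2 change -1.28, adjusted p = 0.000355). Cd14, another marker of that lineage, averaged 3.67 ± 0.05 on fibronectin and 4.13 ± 0.09 on collagen I (log2 change -0.46, adjusted p = 0.000765), and Csf1r had a log2 change of -0.03 (adjusted p = 0.821). The other 5 measured leukocyte markers were below the filter, among them Ptprc, at 0.53 on fibronectin and 0.47 on collagen I.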
